A study of Mus musculus with 22 samples.

Results

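The genes described here are the numbered G protein-coupled receptor genes of the mouse, taken as every row of the count table whose symbol is Gpr followed by a number and at most 1 letter. The rule found 92 of 23453 gene symbols. Most entered the nomenclature as orphan receptors, that is, proteins with the fold of a G protein-coupled receptor and no known ligand. G protein-coupled receptors cross a membrane with a bundle of helices, and an activated receptor at the cell surface acts through heterotrimeric G proteins on adenylyl cyclases, phospholipase C and ion channels, after which arrestins stop the signal. In astrocytes such receptors are known as the entry points of neurotransmitters and purines, and those that act through phospholipase C release calcium from internal stores. The word orphan does not hold for every gene of the set. *Gpr30* (now *Gper1*) is known as a membrane receptor responsive to estrogen, *Gpr39* as a zinc receptor, *Gpr34* as a lysophosphatidylserine receptor and *Gpr4* and *Gpr65* as proton sensors. The adhesion receptors of the set, now named Adgr, bind matrix or neighbouring cells, and *Gpr89*, *Gpr107*, *Gpr108*, the *Gpr137* genes, *Gpr155* and *Gpr180* encode proteins known from intracellular membranes.

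Each of the 22 libraries held the RNA of 1 cultured cortical astrocyte of a C57BL/6 mouse pup of postnatal day 0 to 1. Every cell had been loaded with the calcium dye Fluo-4, exposed to ethanol (EtOH), given ATP at the end of the recording and aspirated after its response was known. A sustained response defined the S-type (6 cells), a transient one the T-type (6 cells), a mixture of both the M-type (5 cells), and NR cells (5 cells) did not respond to EtOH. The cultures had been shaken and treated with cytosine arabinoside against other cell types, microglia among them, and contain astrocytes of newborn cortex grown in serum. Which animal or culture a cell came from is not in the labels. Each type was therefore treated as 1 sample: ratios between types have no test and no p-value, an SD is the spread over the cells of a type, and an interval covers counting error of amplified reads only. A level is the mean over the cells of a type of the count divided by the cell's size factor, called a normalized count. A type without a read was set to 3 reads over the type (0.402 normalized counts for S-type, 0.622 for T-type, 0.319 for M-type, 0.397 for NR), and a ratio against it is given as a bound.

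The libraries held 2937786 to 22131076 reads, and the 2 shallowest were the T-type cells J163_18 and J164_19. The 12 astrocyte markers were all read in some cell, and their sum lay between 4874 and 24111 CPM (reads per 1000000) in every cell. In the T-type cell J162_16, *Vim* had 109044 reads, *Slc1a3* 8735, *Gfap* 11, *Aqp4* 2 and *Slc1a2* 2. In the T-type cell J165_23, *Vim* had 298037, *Aqp4* 10988, *Slc1a3* 4637, *Slc1a2* 4 and *Gfap* 2. The sum was mostly *Vim* in these cells and does not show that each marker was high. The 13 microglia markers summed to 0 to 1.05 CPM in S-type (median 0.185), 0 to 84.3 in T-type (median 2.61), 0.0525 to 2.08 in M-type (median 0.644) and 0.792 to 152 in NR (median 58.3). Of the other marker lists, 9 of 10 oligodendrocyte lineage genes were read (32.4 to 3329 CPM per cell, *Sox10* at 0), 8 of 9 neuronal genes (0 to 2048 CPM, *Slc17a7* at 0), 3 of 6 endothelial genes (0 to 200.005 CPM, *Cldn5*, *Cdh5* and *Tie1* at 0) and 6 of 7 genes of mural cells and fibroblasts (31.7 to 7410 CPM, *Rgs5* at 0). The part of these lists in the results was not tested.

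Most numbered Gpr genes had no read or were read in few of these cells. Of the 92 genes, 26 (28.3%) had no read in any cell, beside 25.5% of all genes, and 66 (71.7%) had at least 1 read. A read in only 1 to 4 cells was the case for 32 of them (34.8%, beside 20.3% of all genes), and 12 of those were read in a single cell. A read in at least 5 cells was found for 34 genes (37.0%, exact 95% binomial interval 27.1 to 47.7), against 54.2% of all genes, and these 34 enter the comparisons between types. Reads in all 22 cells were found for 7 genes, or 7.61% against 15.6% of all genes: *Gpr56*, *Gpr85*, *Gpr107*, *Gpr125*, *Gpr137b*, *Gpr146* and *Gpr180*. *Gpr108*, *Gpr126* and *Gpr137* were read in 21 cells, and *Gpr19* and *Gpr123* in 20.

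Many of the genes without a read are known from other cells. They include *Gpr6*, *Gpr26*, *Gpr45*, *Gpr52*, *Gpr61*, *Gpr101*, *Gpr139* and *Gpr151*, known from neurons, *Gpr17* of the oligodendrocyte lineage, *Gpr55* and *Gpr119*, which respond to lipids, and *Gpr33*, *Gpr84*, *Gpr132* and *Gpr174* of immune cells. *Gpr15*, *Gpr20*, *Gpr25*, *Gpr27*, *Gpr31b*, *Gpr115*, *Gpr135*, *Gpr152* and *Gpr182* had no read either. At the edge of detection stood *Gpr81*, the lactate receptor, with 1 read in the NR cell J183_1, and *Gpr37*, a receptor of oligodendrocytes and astrocytes, with 9 reads in the same NR cell.

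Each cell held reads of part of the set. S-type cells had reads of 21 to 29 of the genes (median 24.5), T-type cells of 11 to 23 (median 20), M-type cells of 19 to 31 (median 25) and NR cells of 22 to 37 (median 24). The ranges of all types overlapped. The lowest number belonged to the T-type cell J162_16 and the highest to the NR cell J183_1. These 2 cells also had the fewest and the most genes of all kinds, 6319 and 13070. At the depth of the smallest library the expected numbers were 16.5 to 26.1 in S-type (median 19.6), 8.10 to 18.5 in T-type (median 15.9), 11.5 to 24.4 in M-type (median 17.8) and 15.2 to 28.4 in NR (median 20.7). T-type was the lowest by median on both scales. The number of genes of all kinds at that depth had the same lowest type, with a median of 7829 in T-type and 9915 to 10286 in the other types. The reads of all members together made up a median of 677 CPM for S-type, 531 for T-type, 505 for M-type and 974 for NR, and ranged from 82.7 CPM in the T-type cell J161_9 to 1046 CPM in the NR cell J185_4.

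**Figure D1:**
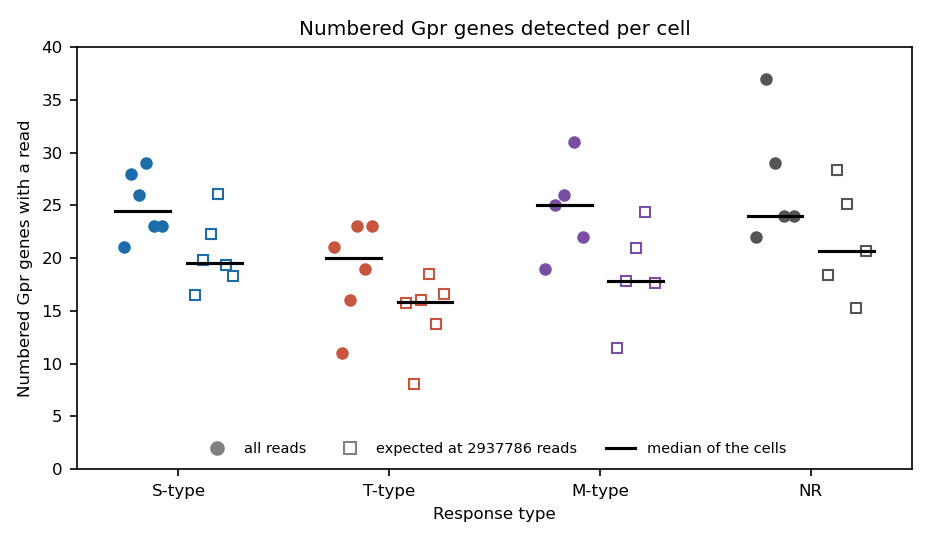
Number of numbered Gpr genes with a read (y axis) in each cell of the 4 response types (x axis), with all reads (filled circles) and the expectation when thinned to the smallest library (open squares); bars are medians over the cells. The types overlap, J162_16 is lowest with 11 genes and J183_1 highest with 37.

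Most of the summed level lay in few genes. The 5 genes with the highest mean normalized count, *Gpr85*, *Gpr56*, *Gpr107*, *Gpr126* and *Gpr137b*, made up 51.8% of the summed mean level of the set and the first 10 made up 84.0%. Per kilobase of exon, the mean level over the 22 cells was 277 normalized counts for *Gpr85*, 258 for *Gpr180* and 208 for *Gpr56*. It was 174.03 for *Gpr19* and 113 for *Gpr137b*. The paper names shortening and positional bias as effects that amplification can bring, so the order of genes on this scale is uncertain. The neighbours in this order do not differ beyond their spread: the SD over cells was larger than the mean for *Gpr85*, *Gpr180*, *Gpr19* and *Gpr137b*.

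**Figure D2:**
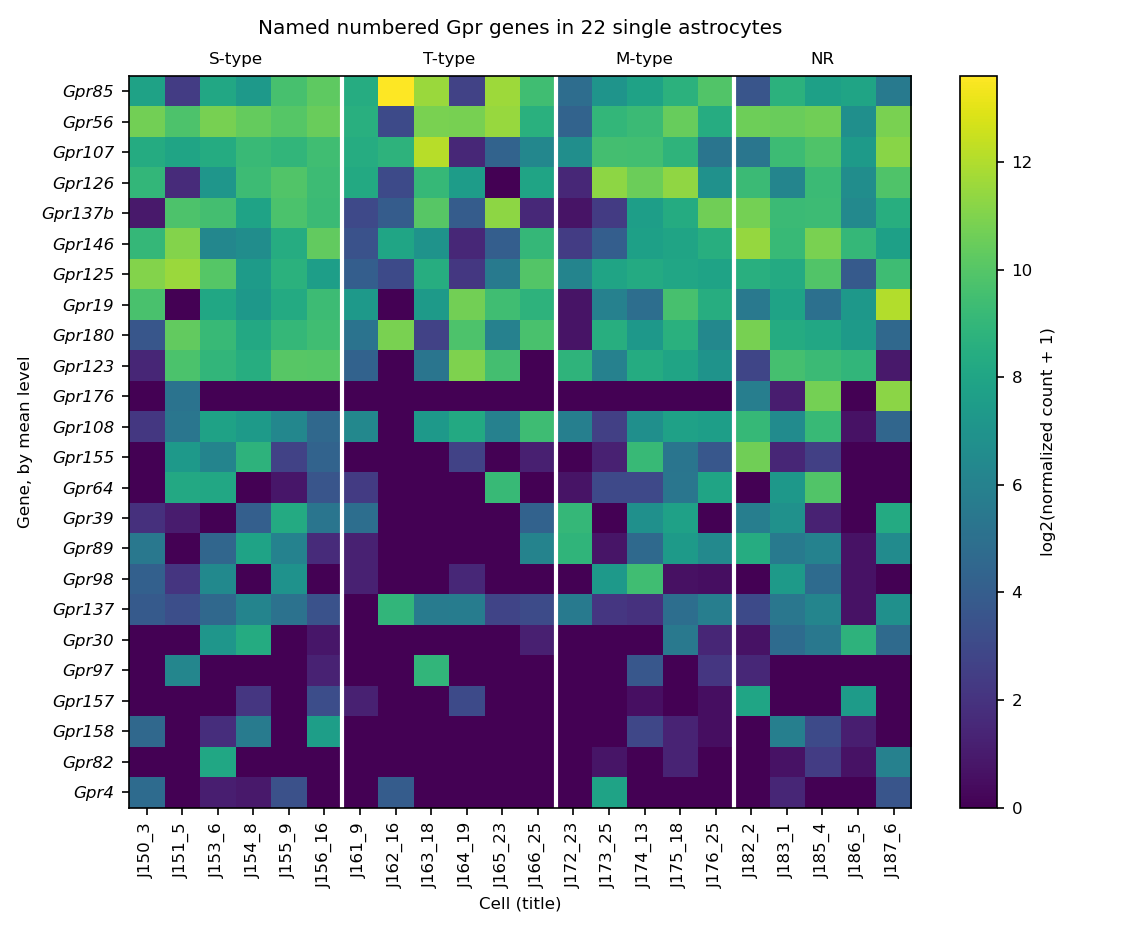
Level of the 24 named numbered Gpr genes (rows, by mean level) in each of the 22 cells (columns, grouped by response type) as log2(normalized count + 1). *Gpr56* and *Gpr107* are coloured across all types, whereas *Gpr176* has values above 0 in 4 NR cells and 1 S-type cell.

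Adhesion receptors were the largest family fixed for the set. Of 18 listed genes 16 were in the table, 14 had a read (beside 74.5% of all genes) and 8 were read in at least 5 cells (beside 54.2%). *Gpr56* (*Adgrg1*, GRCm38 chromosome 8, 94974751 to 95014217), which is known to guide cortical development and the growth of oligodendrocyte precursors, had the smallest share of its counts in its highest cell among the 34 genes. Its normalized count ran from 891 to 1772 in S-type (median 1386), from 7.25 to 2849 in T-type (median 1098), was 18.8, 339, 517, 616 and 1406 in M-type, and 107, 1454, 1549.8, 1593 and 1836 in NR. The means of 3 types lay close together, 1348 ± 344 (SD, n = 6 cells) in S-type, 1216 ± 1122 (n = 6) in T-type and 1308 ± 686 (n = 5) in NR, with log2 ratios of -0.15 (T-type over S-type), -0.10 (T-type over NR) and 0.04 (S-type over NR). M-type was lower at 579 ± 515 (n = 5), a log2 ratio to NR of -1.18 (-1.22 to -1.13), which is -0.86 without its lowest cell J172_23 and -1.81 without its highest, J175_18.

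*Gpr126* (*Adgrg6*, chromosome 10, 14402583 to 14545659), required for myelination by Schwann cells, was highest in M-type. The M-type cells held 1.88, 117, 1477, 2519 and 2576 normalized counts and the NR cells 72.6, 101, 619, 626 and 918. In S-type it ran from 2.17 to 958 (median 574) and in T-type from 0 to 556 (median 213). The 3 highest M-type cells were thus above every cell of the other types, while the other 2 lay within or below them. The log2 ratio of M-type to NR was 1.52 (1.46 to 1.58) and stayed between 1.14 and 1.92 when 1 cell at a time was left out. T-type over S-type had a log2 ratio of -1.17, and -0.85 without the S-type cell J155_9.

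*Gpr125* (*Adgra3*), an adhesion receptor linked to planar cell polarity, was highest in S-type. It ran from 175.2 to 3044 normalized counts in S-type (median 721) and from 3.65 to 982 in T-type (median 30.7), with 70.1, 233, 247, 258 and 320.2 in M-type and 13.2, 322, 376, 665 and 945 in NR. The S-type cells J150_3, J151_5 and J153_6 exceeded every cell of the other types, and 4 T-type cells lay below every S-type cell. The log2 ratio of T-type to S-type was -2.31 (-2.39 to -2.23), and -1.75 to -3.76 over all single cells left out. S-type over NR was 1.33, and 0.78 without J151_5. *Gpr123* (*Adgra1*), its relative in the same subfamily, was read in 20 cells at 632 ± 419 in S-type (n = 6), 465 ± 803 in T-type (n = 6), 243 ± 155.7 in M-type (n = 5) and 378 ± 357 in NR (n = 5), levels that do not differ beyond the spread of the cells.

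*Gpr98* (*Adgrv1*), a very large adhesion receptor of hair cells and of radial progenitors, was nearly absent from T-type. It had 2 reads in all T-type cells, 318 in S-type, 1701 in M-type and 338 in NR. S-type cells held 0 to 119 normalized counts (median 10.1), M-type cells 0, 0.432, 0.519, 158 and 691, and NR cells 0, 0, 0.598, 25.9 and 171. Each of the other types thus had cells at 0 as well. T-type over S-type had a log2 ratio of -6.13 (-9.19 to -4.27) and T-type over NR one of -6.19 (-9.25 to -4.33). J183_1 held 86.6% of the NR level, and without it T-type over NR was -3.62. M-type over NR was 2.11, and 0.01 without J174_13, the cell with the most. *Gpr64* (*Adgrg2*) was read in 13 cells with 1 to 2 high cells per type, the highest at 954 normalized counts in the NR cell J185_4. *Gpr97* (*Adgrg3*), known from leukocytes, was read in 6 cells, and all 89 reads of T-type came from the shallowest library J163_18. Its log2 ratio of T-type to NR of 7.80 (6.201 to 10.10) stands on that cell.

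*Gpr85*, a member of the SREB receptors, which are very highly conserved and expressed in brain, showed the reverse order, with T-type highest. The gene lies at chromosome 6, 13834458 to 13839942. T-type cells ran from 5.47 to 12363 normalized counts (median 1846) and S-type cells from 4.34 to 1178 (median 258). M-type cells held 28.2, 131, 223, 425 and 955, and NR cells 10.9, 47.3, 207, 241 and 429. The T-type cells J162_16, J163_18, J165_23 and J166_25 were above every NR cell, and J164_19 was below them all. The log2 ratio of T-type was 2.87 (2.82 to 2.93) to S-type and 4.12 (4.04 to 4.20) to NR. J162_16 held 63.4% of the T-type level, and leaving it out gave 1.69 and 2.93. That cell had a size factor of 0.276 at 12564138 reads, so its 3409 reads became 12363 normalized counts. In CPM it held 271 of *Gpr85*, beside 249 in J165_23, which had 3111 normalized counts. The ratios thus depend on the scaling of J162_16. The relatives of *Gpr85* were rare or absent. *Gpr173* had 128 reads in 7 cells, 89 of them in J173_25, and *Gpr27* had no read.

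**Figure D3:**
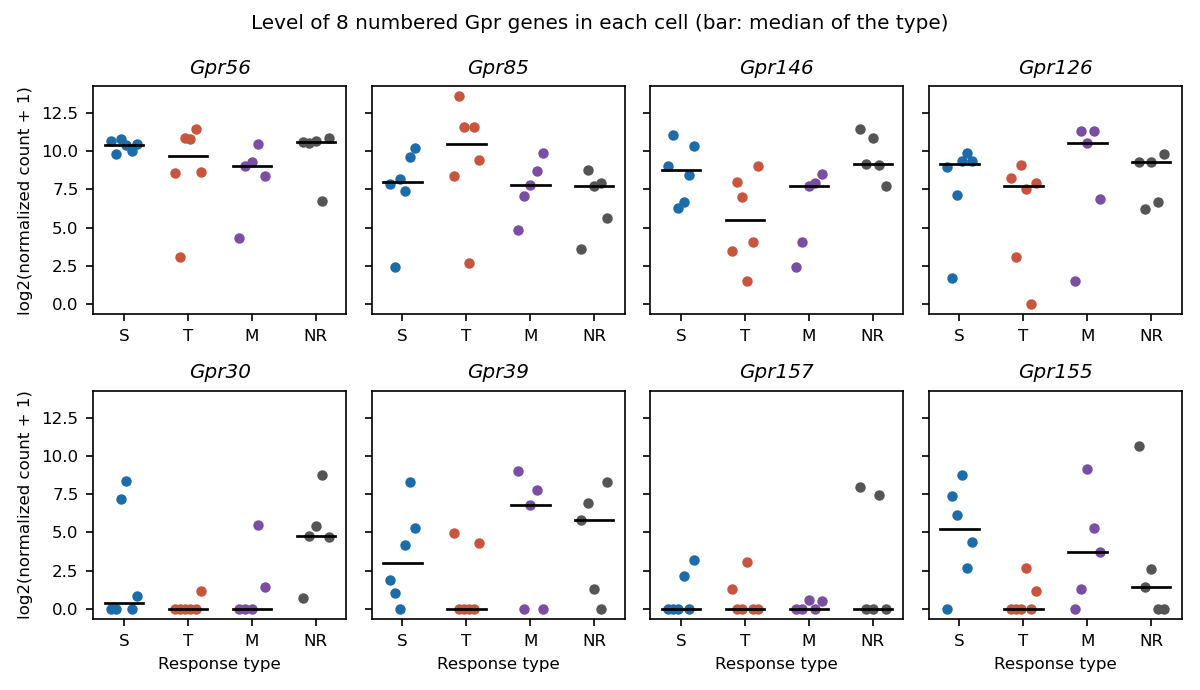
Level of 8 numbered Gpr genes in each cell (points) of the S-, T-, M-type and NR cells (x axis) as log2(normalized count + 1) (y axis), with the median of a type as a bar. *Gpr56* lies at a similar height in most cells, *Gpr30* is above 0 in all 5 NR cells but only 1 T-type cell, and *Gpr85* has its highest cells in T-type.

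The proteins of intracellular membranes were all read, 8 of 8 (beside 74.5% of all genes), and 7 of them in at least 5 cells (beside 54.2%). *Gpr107*, a Golgi protein used by several toxins on their way into the cell, was present in every cell at 446 ± 173.7 normalized counts in S-type (n = 6), 884 ± 1741 in T-type (n = 6), 410.1 ± 329 in M-type (n = 5) and 811 ± 898 in NR (n = 5). The T-type level rested on J163_18, which held 4418, or 83.3% of it. The log2 ratio of T-type to S-type was 0.99, and -1.34 without that cell. *Gpr180* ranged from 11.5 to 1292 in S-type (median 547) and from 5.45 to 1849.6 in T-type (median 446), and was 0.626, 81.7, 149.6, 362 and 392 in M-type and 23.2, 169.9, 278, 323 and 1808 in NR. These ranges overlap throughout. *Gpr108*, a relative of *Gpr107*, was read in 21 cells and ran from 0 to 659 normalized counts.

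*Gpr155*, a lysosomal protein known as a cholesterol sensor, was almost missing from T-type, with 5 reads in 2 of 6 cells. S-type cells ran from 0 to 434 normalized counts (median 43.8), M-type cells held 0, 1.40, 12.1, 37.9 and 573, and NR cells 0, 0, 1.70, 5.03 and 1592. T-type lay at a log2 ratio of -6.67 (-8.30 to -5.45) to S-type, which was -5.51 without the highest S-type cell. Against NR the log2 ratio was -8.15, but J182_2 held 99.6% of the NR level and without it the ratio was -0.58. *Gpr89*, the Golgi pH regulator, was read in 5 of 6 S-type, 2 of 6 T-type, 5 of 5 M-type and 5 of 5 NR cells. Its T-type level of 11.2 ± 26.8 was lower than those of S-type, 61.3 ± 90.1, and NR, 108 ± 134, with log2 ratios of -2.45 and -3.27. The T-type level is nearly that of J166_25 alone, and without that cell the ratios were -7.77 and -8.59. They were -1.21 without the S-type cell J154_8 and -2.17 without the NR cell J182_2. Of its exon bases 27.9% are shared with *Gja5* and *Pdzk1* on the opposite strand, and since the use of strand in the counting is not given in the sources used here, its reads cannot be assigned with certainty.

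*Gpr137b*, a lysosomal membrane protein, has a copy in the table whose symbol marks it as a pseudogene, *Gpr137b-ps*. How alike their sequences are was not examined, and the split of reads between both is uncertain. *Gpr137b* held 1069, 2525, 1591 and 1718 normalized counts in J163_18, J165_23, J176_25 and J182_2 and at most 7.04 in J150_3, J161_9, J166_25, J172_23 and J173_25. The copy held 2208 normalized counts in J173_25 and 2618 in J162_16, where *Gpr137b* held 4.20 and 14.5. The share of the sum assigned to *Gpr137b* ran from 0.190% in J173_25 to 100% in J163_18. Summed over both, the level was 918 ± 613 in S-type (n = 6), 1946 ± 2563 in T-type (n = 6), 1310 ± 995 in M-type (n = 5) and 1484 ± 1317 in NR (n = 5). *Gpr137* had at most 114 normalized counts in every cell except J162_16 (493), and the log2 ratio of T-type to S-type of 1.95 became -0.20 without that cell. *Gpr137* shares 15.4% of its exon bases with *Bad* on the opposite strand.

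*Gpr146* was lower in T-type and M-type than in NR. The receptor, known from liver as a regulator of plasma cholesterol, lies at chromosome 5, 139377697 to 139396415. NR cells held 209, 538, 580.3, 1849.6 and 2815 normalized counts and M-type cells 4.38, 15.4, 211, 243 and 369. S-type cells ran from 77.4 to 2114 (median 439) and T-type cells from 1.82 to 533 (median 70.5). The NR cells were the highest by median, and 1 NR cell, J187_6, fell below the top M-type cells. The log2 ratio to NR was -2.94 (-3.03 to -2.84) for T-type, -2.83 (-2.90 to -2.76) for M-type and -0.68 (-0.73 to -0.63) for S-type. Leaving out any single cell kept the first 2 between -3.88 and -2.34 and between -3.34 and -2.24. For T-type over S-type it was -2.25, and -3.20 to -1.59 over the cells left out.

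*Gpr30* lies 26735 bases from *Gpr146* on the same strand, at chromosome 5, 139423151 to 139427800, and was read in 11 cells. All 5 NR cells had reads, with 0.607, 25.0, 26.1, 41.7 and 435 normalized counts. S-type cells held 0, 0, 0, 0.742, 142 and 324 (median 0.371), so the S-type level was that of J153_6 and J154_8. M-type cells held 0, 0, 0, 1.73 and 44.1, and the only T-type cell with reads, J166_25, held 1.28. The log2 ratio of T-type, with 2 reads, was -8.51 (-11.56 to -6.65) to S-type and -8.95 (-11.999 to -7.09) to NR. M-type over NR was -3.53 (-3.86 to -3.21) and S-type over NR -0.44 (-0.59 to -0.29). J186_5 held 82.3% of the NR level. Without it the log2 ratios to NR were -6.77 for T-type, -1.35 for M-type and 1.74 for S-type. J186_5 also had the highest sum of microglia markers of all cells, 152 CPM, and an astrocyte marker sum of 5380.1 CPM, against 10434 to 23108 CPM in the other NR cells, and their part in the NR level was not tested.

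*Gpr176*, a receptor known from the circadian clock of the suprachiasmatic nucleus that couples to Gz, was read in 4 of 5 NR cells and in 1 S-type cell only. The NR cells held 0, 1.13, 54.6, 1706 and 2433 normalized counts, and the S-type cell J151_5 held 34.7. It lies at chromosome 2, 118277110 to 118373419. The high cells were J185_4 and J187_6, so the NR level of 839 ± 1153 (n = 5) is that of 2 cells. S-type lay at a log2 ratio of -7.18 (-7.73 to -6.68) to NR, which was -6.25 without J187_6 and at most -10.84 without J151_5. T-type was at least 9.29-fold lower than S-type, where the 32 reads of J151_5 are the whole level.

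*Gpr157*, which is known from the cilium of radial progenitors, was at 249.5 and 173.4 normalized counts in the NR cells J182_2 and J186_5 and at 0 in the other 3. In the other types it ran from 0 to 8.16. The log2 ratio to NR was -5.44 (-6.29 to -4.71) for S-type, -5.87 (-7.49 to -4.64) for T-type and -8.87 (-11.92 to -7.02) for M-type, the latter from 2 reads. With any single cell left out these ran from -6.92 to -4.48, from -8.23 to -4.90 and from -9.61 to -7.91. *Gpr39* was read in 5 of 6 S-type, 2 of 6 T-type, 3 of 5 M-type and 4 of 5 NR cells. M-type cells held 0, 0, 111, 220.5 and 522 normalized counts, NR cells 0, 1.44, 55.9, 118 and 319, S-type cells 0 to 320.0 (median 9.65) and T-type cells 0 to 29.6 (median 0). T-type over NR had a log2 ratio of -3.62, and -4.73 to -2.45 with any single cell left out. Of the exon bases of *Gpr39*, 39.9% are shared with *Lypd1* on the opposite strand. In J172_23, the cell with the most *Gpr39* reads (835), *Lypd1* had 2 reads, and in J155_9, with 408 reads of *Gpr39*, it had 264.

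*Gpr19*, a neuronal receptor also linked to the cilium, was read in 20 cells. S-type cells ran from 0 to 832 normalized counts (median 297) and T-type cells from 0 to 1638 (median 305), M-type cells held 0.626, 28.6, 61.6, 356 and 803, and NR cells 31.6, 43.7, 150.1, 233 and 4183. A single NR cell, J187_6, held 90.1% of the NR level, and the log2 ratio of S-type to NR of -1.34 became 1.68 without it.

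Class C receptors that were read included *Gpr158*, a partner of RGS7 in neurons, and *Gpr179* of the retina. *Gpr158* had no read in T-type, 353 in S-type, 18 in M-type and 113 in NR. S-type cells ran from 0 to 197 normalized counts (median 12.8), M-type cells held 0, 0, 0.432, 1.56 and 6.56, and NR cells 0, 0, 1.20, 7.19 and 57.3. T-type was at least 73.1-fold lower than S-type and at least 21.1-fold lower than NR. Without the S-type cell J156_16 the bound on the log2 scale was -4.60, and without the NR cell J183_1 it was -1.75. *Gpr4*, the proton sensor, was read in 8 cells, and J173_25 alone held 239 of the M-type normalized counts, so that the log2 ratio of M-type to NR of 4.22 became at most -2.77 without it, a bound since no M-type read was left.

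Of the receptors of immune cells, 8 of 13 genes in the table had reads (beside 74.5% of all genes). At least 5 cells had reads of 3 genes, *Gpr34*, *Gpr65* and *Gpr82* (beside 54.2% of all genes). *Gpr34* had 150 reads in the NR cell J186_5, 41 in the T-type cell J164_19, 17 in the NR cell J183_1, 9 in the T-type cell J161_9, 3 in J172_23 and 2 each in J175_18 and J187_6, and none in S-type. The 13 microglia markers summed to 152 CPM in J186_5, 84.3 in J164_19, 69.6 in J183_1 and 14.7 in J161_9, 4 of the 5 highest cells. The remaining cell of these 5, J182_2, held 58.3 CPM of these markers, more than J161_9, and no read of *Gpr34*. *Gpr65* had 15 of its 23 reads in J183_1, and *Gpr35*, a receptor of gut and immune cells, had 99 of its 133 reads in the S-type cell J154_8, where the marker sum was 0. *Gpr82* lies 20504 bases from *Gpr34* on chromosome X, and its highest cell was another one, the S-type cell J153_6 with 452 reads and a marker sum of 1.05 CPM. The part of the microglia markers in these differences was not tested.

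In all 4 comparisons the 34 genes leaned, without a test, to lower levels in the first type named. T-type over S-type had 6 genes at least 2-fold higher (17.6%, beside 25.3% of the 12719 genes tested) and 15 at least 2-fold lower (44.1%, beside 32% of all). The median log2 ratio was -0.42, against -0.09 for all genes. T-type over NR had 4 higher (11.8%, beside 27.9%) and 15 lower (44.1%, beside 32.2%), with a median of -0.98 against -0.07. S-type over NR had 8 higher (23.5%, beside 25%) and 10 lower (29.4%, beside 22.3%), with a median of -0.31 against 0.03. M-type over NR had 8 higher (23.5%, beside 19.6%) and 18 lower (52.9%, beside 27.9%), with a median of -1.05 against -0.20. The share of lower genes was above the background in all 4 comparisons and nearest to it in S-type over NR. The median of the members minus that of all genes was -0.34 in T-type over S-type and -0.34 in S-type over NR. It was -0.91 in T-type over NR and -0.85 in M-type over NR. With the mean over cells of CPM it was only -0.12 in T-type over S-type. The 3 comparisons with NR share the same 5 NR cells and are not independent of each other.

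**Figure D4:**
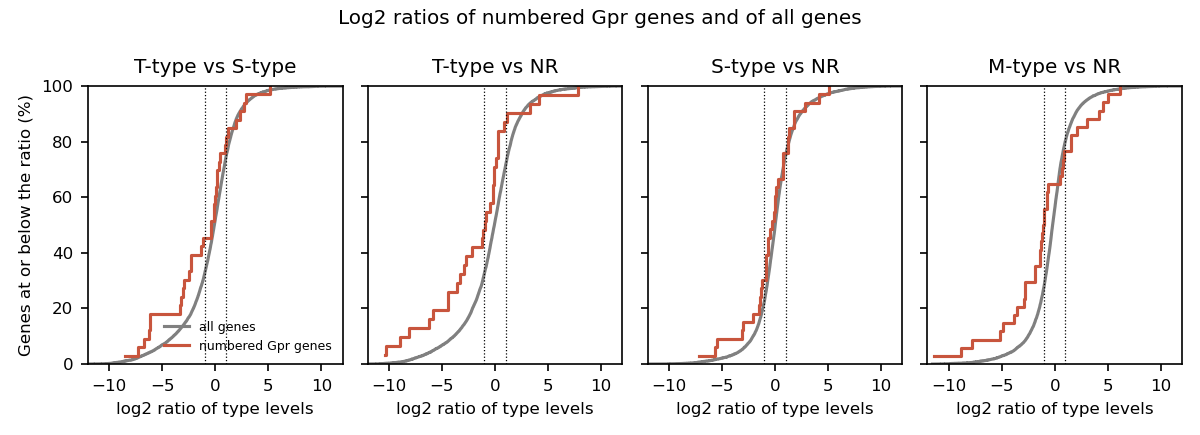
Cumulative share (y axis, %) of the numbered Gpr genes read in at least 5 cells (red) and of all such genes (grey) by log2 ratio of type levels (x axis) in the 4 comparisons; dotted lines mark 2-fold. The red curve lies left of the grey one at the median in each panel, by the most in T-type over NR (-0.98 against -0.07).

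For 27 of the genes the level averaged 10 normalized counts or more over all cells, and in no comparison did the cells of both types separate for any of them, 0 of 27 each time. Among all genes at that level 0.848% separated for T-type over S-type, 1.06% for T-type over NR, 0.433% for S-type over NR and 0.649% for M-type over NR. The differences described above are thus differences of mean level with overlapping cells. Some of the ratios stayed past 2-fold whichever cell was left out. In T-type over S-type this held for 2 of the 34 genes higher (5.88%, beside 6% of all genes tested) and 8 lower (23.5%, beside 18.8%). T-type over NR kept 1 higher (2.94%, beside 8.22%) and 10 lower (29.4%, beside 16.9%), S-type over NR 1 higher (2.94%, beside 11.4%) and 3 lower (8.82%, beside 7.71%), and M-type over NR 3 higher (8.82%, beside 7.41%) and 7 lower (20.6%, beside 11%). Among the named genes, some of which were picked for extreme ratios, those of T-type were *Gpr85*, higher than both S-type and NR, and *Gpr30*, *Gpr89*, *Gpr98*, *Gpr146* and *Gpr158*, lower than both. *Gpr125* and *Gpr155* were lower than S-type alone on this count, and *Gpr39*, *Gpr82*, *Gpr157* and *Gpr176* lower than NR. In M-type *Gpr126* and *Gpr97* were higher than NR, the latter from 33 against 3 reads, and *Gpr30*, *Gpr82*, *Gpr146*, *Gpr157* and *Gpr176* lower. S-type kept *Gpr157* and *Gpr176*, both lower than NR. *Gpr34*, which the rule for names did not pick, was the other gene kept higher in T-type than in S-type. S-type had no read of it, and its T-type reads came from J161_9 and J164_19. It was also kept lower than NR in S-type and M-type. For *Gpr82*, J187_6 held 66 of the 74 NR reads. Without that cell its log2 ratio to NR was at most -1.14 for T-type, a bound, and -1.60 for M-type, from few reads. Leaving out 1 cell does not test a level held by 2 cells, such as that of *Gpr30* in S-type or of *Gpr157* and *Gpr176* in NR.

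Single cells held much of the level of many of the 34 genes. The highest cell held a median of 43.9% of a gene's summed normalized counts, against 28.3% over all tested genes, and more than 50% for 14 of 34 genes (41.2%) against 19.02%. At a mean level of at least 10 the share above 50% was 11 of 27 (40.7%), against 17.9% of the genes in the same range of level. *Gpr97* reached 84.0% in J163_18, *Gpr82* 80.0% in J153_6 and *Gpr4* 78.7% in J173_25, and *Gpr56* had the lowest share, 11.5%. No cell stood behind all of these. J187_6 was the highest cell for 4 of 34 genes (11.8%, beside 8.56% of all tested genes). J162_16, J164_19 and J182_2 were the highest for 3 each (8.82%, beside 10.7%, 5.72% and 4.15%).

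**Figure D5:**
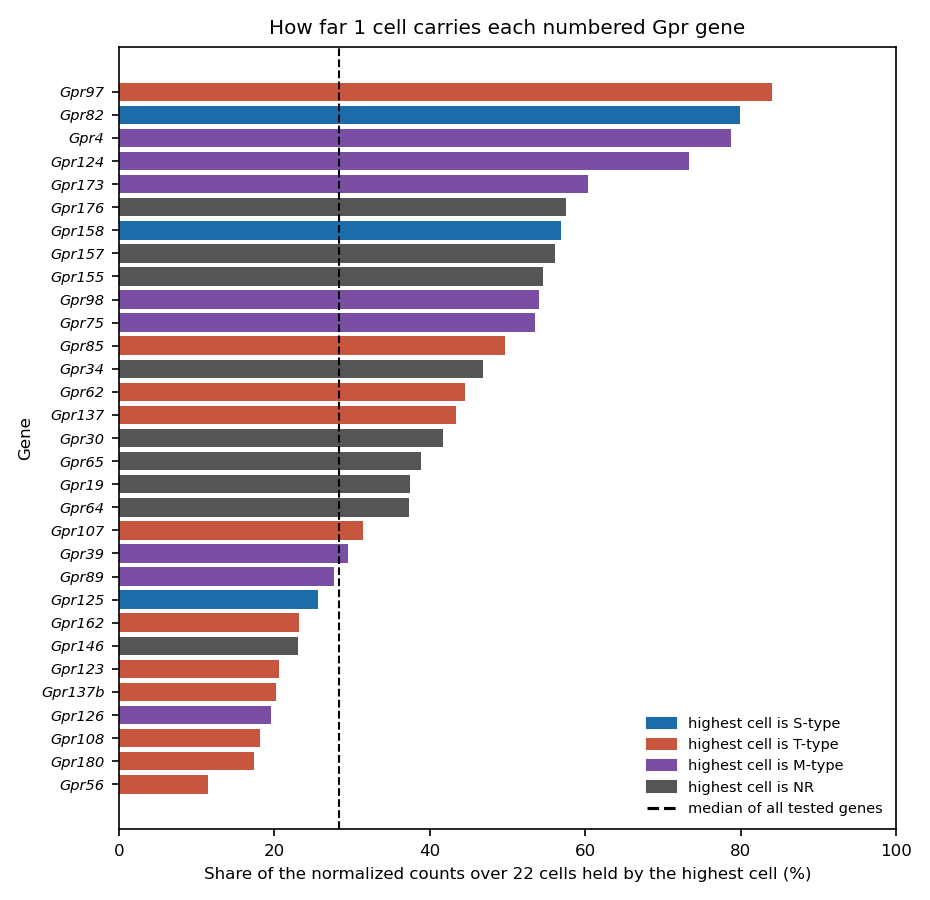
Share of a gene's normalized counts over the 22 cells that its highest cell holds (x axis, %), for 31 of the 34 numbered Gpr genes read in at least 5 cells (rows), coloured by the type of that cell. The dashed line is the median of all tested genes, 28.3%, and the bars run from *Gpr56* at 11.5% to *Gpr97* at 84.0%.

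Several of the genes are neighbours in the genome, and within some pairs the number of cells with a read differed. Pairs of other genes were not compared. *Gpr56* and *Gpr97* lie 3474 bases apart on the same strand of chromosome 8 (GRCm38) and were read in 22 and 6 cells. *Gpr146* and *Gpr30* were read in 22 and 11 cells. *Gpr34* and *Gpr82* were read in 7 cells each, with 4 in common. The pairs of *Gpr18* with *Gpr183*, *Gpr110* with *Gpr116* and *Gpr111* with *Gpr115* were each read in at most 4 cells.

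Downstream of the receptors, all 9 G protein alpha genes listed had reads (beside 74.5% of all genes). Of the 8 read in at least 5 cells 2 were at least 2-fold higher (25%, beside 25.3% of all genes) and 1 lower (12.5%, beside 32%) in T-type than in S-type. The counts were 3 higher (37.5%, beside 27.9%) and 1 lower (12.5%, beside 32.2%) in T-type over NR. They were 2 (25%, beside 25%) and 0 (beside 22.3%) in S-type over NR. In M-type over NR they were 1 (12.5%, beside 19.6%) and 1 (12.5%, beside 27.9%). *Gnas*, the stimulatory alpha subunit, was at 58198 ± 60430.0 normalized counts in T-type (n = 6), 11815 ± 7702 in S-type (n = 6), 9755 ± 1295 in M-type (n = 5) and 14738 ± 6919 in NR (n = 5), a log2 ratio of 2.30 to S-type and 1.98 to NR with an SD above the T-type mean. Without the T-type cell J164_19 these were 1.75 and 1.43. *Gnai2*, an inhibitory subunit, had log2 ratios of T-type of 1.57 to S-type and 1.70 to NR, and of 1.03 and 1.16 without J162_16. Of 13 beta and gamma genes, 5 were higher (38.5%, beside 25.3%) and 4 lower (30.8%, beside 32%) in T-type than in S-type. In T-type over NR these were 4 (30.8%, beside 27.9%) and 3 (23.1%, beside 32.2%). S-type over NR had 2 (15.4%, beside 25%) and 3 (23.1%, beside 22.3%). M-type over NR had 3 (23.1%, beside 19.6%) and 3 (23.1%, beside 27.9%). Adenylyl cyclases had 0 of 8 higher and 4 lower (50%, beside 32% of all genes) in T-type over S-type, 2 higher and 4 lower in T-type over NR (beside 27.9% and 32.2%), 3 and 2 in S-type over NR (beside 25% and 22.3%) and 3 and 3 in M-type over NR (beside 19.6% and 27.9%). *Adcy9* had a level of 68.8 in S-type, 33.8 without J156_16, and no read in T-type. Neither of the arrestins *Arrb1* and *Arrb2* reached 2-fold in T-type over S-type. In each of S-, T- and M-type, 1 of them was at least 2-fold higher than NR (50%, beside 25%, 27.9% and 19.6% of all genes). *Gpr37l1*, *Gprc5b* and *Lphn2*, glial relatives whose symbols fall outside the rule, were read in 21, 21 and 22 cells. *Gpr37l1*, an astrocyte receptor, had a level of 1399 for NR, 699 for S-type, 383 for T-type and 222 for M-type. J183_1 held 73.6% of the NR level. Without the highest cell of their own type, NR was at 461, S-type at 453, T-type at 184 and M-type at 86.0.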

How the data were processed

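The authors amplified the RNA of each cell in 2 rounds, sequenced stranded libraries as paired reads, aligned them with STAR to GRCm38 and counted uniquely aligned exonic reads per gene with VERSE, a modified HTSeq (the submitters' processing notes name STAR and HTSeq). They deposited raw counts without normalization. Versions and the use of strand in counting are not given in the sources used here. There are no molecular identifiers. Summed counts ran from 2937786 to 22131076 per cell. Size factors were medians of ratios over the 3670 genes that all cells expressed (NumPy 2.4.6, pandas 2.3.3, Python 3.11.15). Only genes detected in at least 5 cells were compared. A level of 0 became 3 reads over the type, and no ratio was given where both types had at most 3 reads. Intervals were exact at 95% (SciPy 1.17.1), from the binomial split of the reads for ratios. Expected numbers of detected genes came from the hypergeometric distribution. Named were the 20 members with the highest mean level, for each comparison the 3 most extreme ratios in either direction at a level of 10 or more, and genes the study gives a direction. Some members are not reported here, although counts and medians over the set include them. Of other lists, at most 3 genes with the most reads were to be named, and *Adcy9*, *Gnai2* and the arrestins were chosen after their values were seen, as were members named only for their detection. Members and lists were chosen with earlier results of these data known. Positions and exon lengths came from GENCODE vM21 for 91 genes, 19 through RefSeq synonyms. Alternatives used CPM, TMM (edgeR 4.0.16 under R 4.3.3), thinned cells, a pseudocount of 1, other filters and cells left out in turn. Steps were tested on simulated data. Protein sequences, the calcium recordings and the time of collection were not used here. Figures were drawn with matplotlib 3.10.9.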

Additional observations from a re-analysis of the deposited data

Results flagged for a closer look

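Within each type, 13 of 76 sets of values had a cell at the low end whose gap to the next cell passed Dixon's critical value. Log2 values with cells at 0 are not normal, and the same cells recur across genes. The number of flags therefore cannot be set against a rate from chance. On the scale of log2(normalized count + 1), the T-type cell J162_16 stood below the others of its type for *Gpr56* (3.04, others 8.55 to 11.5), *Gpr19* (0, others 7.35 to 10.7) and *Gpr108* (0, others 5.97 to 9.37), and it had the fewest genes of all kinds. The S-type cell J150_3 was low for *Gpr123* (1.47), *Gpr137b* (0.917) and *Gpr180* (3.65), and the S-type cell J151_5 for *Gpr126* (1.66), *Gpr19* (0) and *Gpr85* (2.42), while both cells were the highest of S-type for *Gpr125*. The M-type cell J172_23 was low for *Gpr125* (6.15) and *Gpr180* (0.701). The NR cell J186_5 was low for *Gpr56* (6.76, others 10.5 to 10.8) and *Gpr125* (3.82), and it held the highest sum of microglia markers.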

How the results depend on the processing

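No paired analysis was possible because the results come from no test, and the numbers that some titles share across types are not said to pair cells. Of the gene values under settings other than leaving out a cell, 309 stayed within the counting interval of the main ratio. Where there was no interval, within 2-fold of the main ratio was used. A further 214 moved outside it, and 3 belonged to ratios past 2-fold that changed sign. Sign changes of smaller ratios were not counted apart. CPM in place of size factors shifted the median log2 ratio of all genes from -0.09 to -0.56 (pooled) and -0.46 (mean over cells) in T-type over S-type, and from -0.07 to -0.54 and -0.46 in T-type over NR. The median of the numbered Gpr genes was then -1.11 and -0.58 in T-type over S-type -1.501 and -1.35 in T-type over NR and -0.74 and -0.81 in M-type over NR, and -0.21 in S-type over NR with mean CPM. Thinning to the smallest library left 3 higher genes in T-type over S-type, 1 in T-type over NR, 3 in S-type over NR and 3 in M-type over NR. Without the filter there were 8 higher genes in T-type over NR, 13 higher and 16 lower in S-type over NR, and medians of -0.71 in T-type over NR and -1.36 in M-type over NR. At a mean level of at least 10, M-type over NR kept 4 higher genes. Without the 2 shallowest T-type libraries, a choice made after seeing the data, the median was -1.74 to S-type and -1.69 to NR. The median of all genes was then -0.44 to each. *Gpr97* T-type over S-type was at most -4.09 in that setting. *Gpr137* T-type over NR was -0.41 with pooled CPM and -0.19 with mean CPM. Genes detected per cell had medians of 18 (S-type), 12.5 (T-type) and 18 (M-type) from 5 reads, 19.6 (S-type) and 17.8 (M-type) thinned to the smallest library, and 16.5, 12.8 and 16.3 at 1000000 reads.

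Leaving out 1 cell at a time, T-type over S-type had 6 to 8 higher and 13 to 18 lower genes (median -1.12 to -0.18), T-type over NR 4 to 7 and 12 to 17 (-1.40 to -0.61), S-type over NR 7 to 11 and 7 to 13 (-0.54 to 0.20, above 0 without J187_6) and M-type over NR 6 to 11 and 14 to 20 (-1.61 to -0.66). The median number detected ran from 23 to 26 (S-type), 19 to 21 (T-type), 23.5 to 25.5 (M-type) and 24 to 26.5 (NR). Of 60 ratios past 2-fold, 14 changed sign in some leave-out. In T-type over S-type these were *Gpr137* (-0.20 to 2.51), *Gpr4* (at most -3.23, to 0.0712) and *Gpr97* (at most -4.28, to 8.09). In T-type over NR they were *Gpr137* (-1.05 to 1.74) and *Gpr64* (-8.03 to 1.38). In S-type over NR they were *Gpr155* (-2.65 to 6.09), *Gpr19* (-1.76 to 1.68), *Gpr4* (-0.16 to 3.87), *Gpr64* (-1.92 to 1.38) and *Gpr82* (at most -4.69, to 5.07). In M-type over NR they were *Gpr155* (-4.64 to 6.21), *Gpr19* (-3.05 to 1.13), *Gpr4* (at most -2.77, to 6.81) and *Gpr64* (-4.04 to 0.67). Values given as at most are bounds, since the leave-out left the first type without a read. The cause of the other changes was not tested. A single sample per type and amplified reads without molecular identifiers limit all ratios to these cells.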
